A study of Mus musculus with 15 samples.

Results

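The genes described here take a CD8+ T cell from glucose at its surface to lactate, and include genes switched on by low oxygen. They comprise 2 glucose transporters, 11 genes of the energy-investing steps of glycolysis, 5 genes of the energy-yielding steps, 5 genes that handle pyruvate and lactate, the oxygen-sensitive factor Hif1a with 2 prolyl hydroxylases that mark it for destruction, and 6 further targets of that factor. The 32 genes were chosen by name from these pathways. All 32 were rows of the deposited table of 27019 gene symbols, and all 32 were among the 16057 genes that passed a filter on low counts.

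The cells were splenic CD8+ T cells of C57BL/6 OT-I mice aged 8 to 10 weeks, which carry a transgenic T cell receptor for the ovalbumin peptide OVA257-264. All groups, including those labelled WT, carry this receptor. WT and Susd2-/- cells were each taken at day 0, naive and untreated, and at day 3, from splenocytes stimulated with the peptide, which makes 4 groups of 2 libraries. Magnetic beads were used to deplete the remaining cell types. No group was cultured without peptide, so an effect of the peptide and an effect of the days in culture cannot be told apart. Whether the libraries of one group are separate mice is not stated in the labels, and p-values here reflect no more than the variation among the libraries themselves, possibly technical.

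Resting T cells draw most of their energy from mitochondria, and activated T cells take up more glucose and convert much of it to lactate even when oxygen is present. Hif1a is a transcription factor whose protein is hydroxylated by Egln enzymes and destroyed when oxygen is plentiful. When it accumulates, it binds short DNA elements near genes of glycolysis, lactate export and vessel growth. In T cells the same factor also accumulates after receptor stimulation, and Myc and Irf4 promote many of the same metabolic genes.

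Promoters of the genes on which the results turn are shown first, so that they can be searched for the 5-letter core of the element that Hif1a binds. Sequences are from RefSeq (GRCm38.p6), and 30 of the 32 genes were matched by symbol, Slc2a3 and Ndrg1 being the others. They are printed 5′ to 3′ on the gene's strand, in lower case with the letters ACGTG or GCGTG, or their reverse complements CACGT and CACGC, in capitals. Bases inside GENCODE M21 exons were left out. Pfkfb3 and Pfkfb4 are shown because these sister enzymes moved in opposite directions between the days, and Vegfa because it differed most between the genotypes at day 0. The Pfkfb3 stretch (chr2:11502102-11502340, minus strand, intronic, before an inner start site), the Pfkfb4 stretch (chr9:108991652-108991777, plus strand, before the gene) and the Vegfa stretch (chr17:46032378-46032627, minus strand, before the gene) read as follows.
Pfkfb3: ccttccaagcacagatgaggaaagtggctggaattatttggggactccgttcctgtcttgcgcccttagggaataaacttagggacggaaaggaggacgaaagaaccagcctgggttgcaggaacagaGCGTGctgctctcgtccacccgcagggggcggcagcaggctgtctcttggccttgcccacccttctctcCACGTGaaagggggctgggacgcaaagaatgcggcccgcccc
Pfkfb4: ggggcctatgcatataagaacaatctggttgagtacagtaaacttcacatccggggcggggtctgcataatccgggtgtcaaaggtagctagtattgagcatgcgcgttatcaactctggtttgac
Vegfa: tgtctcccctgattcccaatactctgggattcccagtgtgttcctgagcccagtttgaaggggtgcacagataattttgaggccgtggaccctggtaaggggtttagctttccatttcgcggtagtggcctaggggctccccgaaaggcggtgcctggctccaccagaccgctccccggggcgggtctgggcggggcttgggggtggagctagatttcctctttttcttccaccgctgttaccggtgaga
The Pfkfb3 stretch held 3 matches, including a CACGTG palindrome that counts on both strands, and the Pfkfb4 and Vegfa stretches held 0. The letters GCGTG stood 117 bases before the Pfkfb4 start site, inside an annotated exon that is not printed. RefSeq gives Pfkfb3 and Vegfa a further start site each. The 250 bases before the outer Pfkfb3 start held 1 match and those before the inner Vegfa start held 2, all inside annotated exons that are not printed, so the count of matches depends on the start site.

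Stretches of 55 to 250 bases are shown for 5 further genes picked after their values were seen. Those of 55 bases (Hk2, Ldha and Pdk1) were cut around a match, so they hold the core by design. Further matches of these 3 genes are not printed. Hk2 and Slc16a3 were among the genes of largest rise, Ldha had the highest level for its length, Pdk1 fell, and P4ha1 differed between the genotypes at day 0. The Hk2 stretch lies before the gene (chr6:82774477-82774531, minus strand), the Slc16a3 stretch in an intron before an inner start site (chr11:120948817-120949052, plus strand) and the Ldha stretch in an intron before an inner start site (chr7:46845731-46845785, plus strand). The Pdk1 stretch (chr2:71873121-71873175, plus strand) and the P4ha1 stretch (chr10:59323046-59323295, plus strand) lie before their genes.
Hk2: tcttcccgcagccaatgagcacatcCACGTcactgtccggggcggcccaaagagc
Slc16a3: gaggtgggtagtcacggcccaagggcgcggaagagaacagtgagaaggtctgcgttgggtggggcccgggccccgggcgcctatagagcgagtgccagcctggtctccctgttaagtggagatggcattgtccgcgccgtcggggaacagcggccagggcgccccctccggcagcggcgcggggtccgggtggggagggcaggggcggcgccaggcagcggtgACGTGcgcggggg
Ldha: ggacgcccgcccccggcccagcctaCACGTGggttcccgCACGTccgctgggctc
Pdk1: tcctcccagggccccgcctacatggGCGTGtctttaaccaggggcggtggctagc
P4ha1: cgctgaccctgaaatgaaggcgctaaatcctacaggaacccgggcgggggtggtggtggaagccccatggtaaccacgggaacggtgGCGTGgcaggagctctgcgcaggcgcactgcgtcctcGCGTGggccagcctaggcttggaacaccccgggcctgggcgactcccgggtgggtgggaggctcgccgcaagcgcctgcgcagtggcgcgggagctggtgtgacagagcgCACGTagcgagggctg
Over windows of 300 bases around every RefSeq start site (250 before and 50 after), ACGTG or GCGTG stood in 36 of the 44 promoters of the 30 matched genes (81.8%). The share was 60.2% over promoters of the genes tested and 43.8% over all 32851 promoters of the reference table. The median GC content was 62.8%, 60.0% and 52.7% in these 3 sets. By gene, 28 of 30 (93.3%) had a match in at least 1 promoter, and Gpi1 and Tpi1 had none. The share by gene was 65.8% over tested genes with a listed promoter and 46.7% over all genes of the reference table. Some windows of the same gene overlap. A match is a description of letters and not a bound site. Both Pdk1, which fell, and Hk2, which rose, held the core in a promoter window, and the other Pdk1 window held 0 matches.

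Library totals ran from 26829807 to 53846911 counts. Susd2 itself was counted 90 and 80 times in WT and 1 and 3 times in Susd2-/- libraries of day 0, and 16 and 10 times against 0 and 2 times at day 3. Libraries of a group differed less at day 0, with a biological coefficient of variation of 5.38%, than at day 3, with 10.1%. WT day 3 library 2, the only library sequenced on 1 lane, stood above its partner in several hypoxia genes. Levels are CPM, counts scaled to a common library size after TMM correction, and effects are log2 fold changes ± standard error from edgeR's quasi-likelihood test, with Benjamini-Hochberg adjustment over the 16057 genes. A gene is said to have risen, fallen or changed where the adjusted p was below 0.05.

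Most of these genes were higher at day 3 than at day 0. The 32 genes together took 0.354% to 0.365% of the counts in the day 0 libraries and 2.00% to 2.25% in the day 3 libraries, and the groups did not overlap. In WT cells 28 of 32 rose and 2 fell between day 0 and day 3, and 24 changed at least 2-fold. Over all genes tested, 75.2% changed, 36.2% upward and 39% downward, and 7973 of 16057 changed at least 2-fold. The median log2 fold change was 2.51 over the 32 genes and −0.14 over all genes tested. In Susd2-/- cells 26 rose and 2 fell, beside 76.4% of all genes changed (36.7% upward and 39.7% downward), with medians of 2.46 and −0.12. Of the 32, 24 changed at least 2-fold in Susd2-/- cells, as did 8278 of the 16057 genes tested. These are bulk libraries, in which more cells with a transcript and more transcript per cell cannot be told apart.

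Markers of other cells moved between the days as well. In WT, 15 of 16 macrophage and monocyte markers were lower at day 3 and none was higher (summed 374 to 391 CPM at day 0, 54.8 to 60.9 CPM at day 3), and 7 of them, Adgre1 and C1qa included, had 0 counts at day 3. All 6 natural killer cell markers were lower (summed 86.7 to 87.4 CPM, then 1.59 to 2.29 CPM), as were 6 of 8 B cell markers (530 to 540 CPM, then 261 to 267 CPM, with Ms4a1 and Cd22 at 0). Plasma cell markers ran from 65.1 to 66.4 CPM at day 0 and from 183 to 206 CPM at day 3, with 2 of 4 tested higher and 2 lower. Of 10 CD8 T cell identity genes, 9 were lower and 1 higher (6668 to 6767 CPM, then 3658 to 3817 CPM). In Susd2-/- cells all 16 macrophage, all 6 natural killer and all 8 B cell markers and 9 of 10 CD8 T cell identity genes were lower at day 3. The part of these cells in the changes of the 32 genes was not tested.

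**Figure D1:**
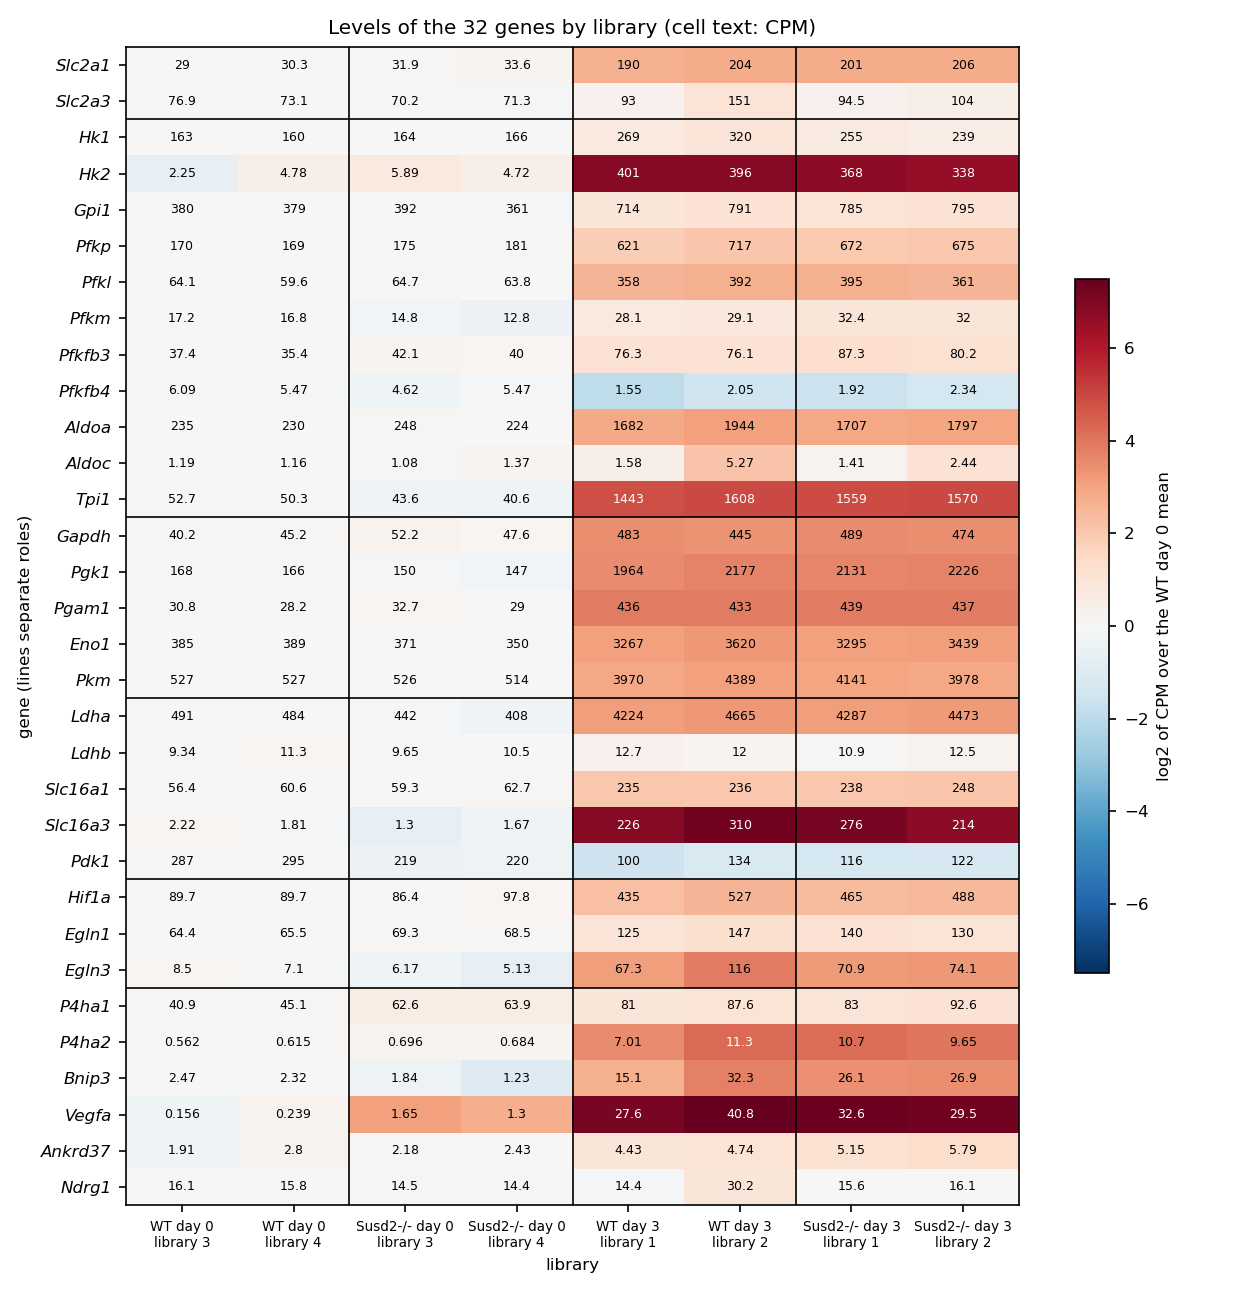
Levels of the 32 genes in the 8 libraries, with genes in rows grouped by role and libraries in columns; cell text is CPM and color is the log2 ratio to the WT day 0 mean. Day 3 columns are darker red than day 0 columns for most rows, Pfkfb4 and Pdk1 are blue at day 3, and Vegfa is the row that differs most between the genotypes at day 0.

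**Figure D2:**
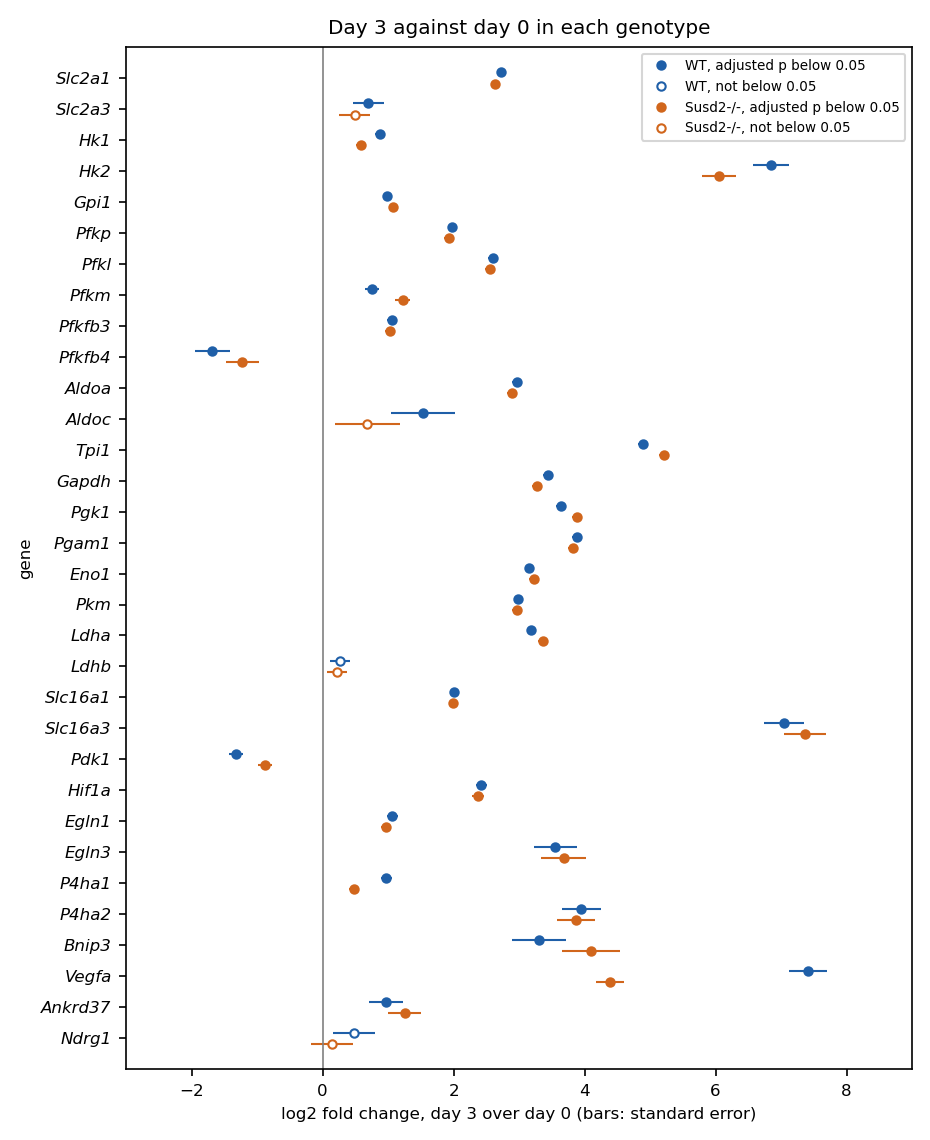
Log2 fold change of day 3 over day 0 (x axis) for each of the 32 genes (y axis), WT in blue and Susd2-/- in orange, with bars for the standard error and filled points for an adjusted p below 0.05. Vegfa, Slc16a3 and Hk2 lie farthest to the right in WT, and Slc16a3, Hk2 and Tpi1 in Susd2-/- cells. Pfkfb4 and Pdk1 are the genes to the left of 0 in both genotypes.

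Among the glucose transporters, Slc2a1 (GLUT1) rose and Slc2a3 (GLUT3) moved little. Slc2a1 had 29.0 and 30.3 CPM in WT at day 0 and 190 and 204 CPM at day 3, and in Susd2-/- libraries 31.9 and 33.6 CPM against 201 and 206 CPM. The log2 fold change was 2.73 ± 0.07 in WT (adjusted p = 5.74e-17) and 2.64 ± 0.07 in Susd2-/- cells. Slc2a3 had 76.9 and 73.1 CPM in WT at day 0 and 93.0 and 151 CPM at day 3, so the higher day 3 level rests mainly on library 2. Its log2 fold change was 0.70 ± 0.24 in WT (adjusted p = 0.0446) and 0.49 ± 0.23 in Susd2-/- cells, a difference that missed the test (adjusted p = 0.118). Without WT day 3 library 2 it was 0.34 in WT (adjusted p = 0.00145). The WT call of Slc2a3 was lost in 10 of 20 alternative fits, including total-count scaling.

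In the investment phase, 10 of 11 genes rose in WT cells and 9 of 11 in Susd2-/- cells. Hk2, the inducible hexokinase that traps glucose in the cell (chromosome 6, 82725025 to 82774454, minus strand, GRCm38), went from 2.25 and 4.78 CPM at day 0 to 401 and 396 CPM at day 3 in WT. In Susd2-/- libraries it went from 5.89 and 4.72 CPM to 368 and 338 CPM. The rise was 115-fold in WT (log2 6.84 ± 0.27, adjusted p = 4.53e-06) and 66.3-fold in Susd2-/- cells. The constitutive hexokinase Hk1 rose by a log2 fold change of 0.87 ± 0.07 in WT, from 163 and 160 CPM to 269 and 320 CPM.

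Tpi1, the isomerase that makes both products of aldolase usable (chromosome 6, 124810586 to 124814296, minus strand), had the largest rise among the enzymes below hexokinase. It had 52.7 and 50.3 CPM in WT at day 0 and 1443 and 1608 CPM at day 3, a 29.6-fold rise (log2 4.89 ± 0.08, adjusted p = 9.76e-20). The aldolase Aldoa rose 7.81-fold in WT, and the isomerase Gpi1 1.98-fold. Of the phosphofructokinase genes, whose products commit sugar to glycolysis, Pfkl rose 6.05-fold, Pfkp 3.95-fold and the muscle form Pfkm 1.69-fold in WT. The aldolase Aldoc stayed low: it had 1.19 and 1.16 CPM in WT at day 0 and 1.58 and 5.27 CPM at day 3. Its WT rise (log2 1.54 ± 0.49, adjusted p = 0.0114) was lost without WT day 3 library 2 and without WT day 0 library 4, and its value in Susd2-/- cells, 0.68 ± 0.49, missed the test (adjusted p = 0.22).

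Pfkfb3 and Pfkfb4 are sister enzymes that set the level of fructose 2,6-bisphosphate, an activator of phosphofructokinase, and the promoter stretches above belong to them. Pfkfb3 had 37.4 and 35.4 CPM in WT at day 0 and 76.3 and 76.1 CPM at day 3. In Susd2-/- libraries it had 42.1 and 40.0 CPM, then 87.3 and 80.2 CPM. It rose by a log2 fold change of 1.06 ± 0.08 in WT (adjusted p = 2.13e-10) and 1.03 ± 0.08 in Susd2-/- cells. Pfkfb4 (chromosome 9, 108991778 to 109032228, plus strand) had 6.09 and 5.47 CPM in WT at day 0 and 1.55 and 2.05 CPM at day 3, and 4.62 and 5.47 CPM against 1.92 and 2.34 CPM in Susd2-/- libraries. It fell in both genotypes, with log2 fold changes of −1.68 ± 0.26 in WT (adjusted p = 1.06e-05) and −1.23 ± 0.25 in Susd2-/- cells (adjusted p = 0.000226).

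All 5 genes of the payoff phase rose in both genotypes, by log2 fold changes of 2.99 to 3.88 in WT and 2.96 to 3.88 in Susd2-/- cells. Pgam1, which moves the phosphate of phosphoglycerate, rose 14.7-fold in WT, Pgk1, which makes the first ATP of the pathway, 12.4-fold, and the enolase Eno1 8.89-fold. Pkm, the pyruvate kinase, had 527 CPM in both WT libraries at day 0 and 3970 and 4389 CPM at day 3 (7.93-fold). Gapdh, the dehydrogenase often used as a reference gene, had 40.2 and 45.2 CPM in WT at day 0 and 483 and 445 CPM at day 3, a 10.9-fold rise. Its counts are uncertain: GENCODE M21 holds 79 other loci with at least 95% identity over at least 150 bases, and the 76 of them in the table held counts equal to 44.6% of those of Gapdh. For Eno1 this share was 1.5%, for Pkm 0.870%, for Tpi1 0.548%, and for each of the other genes it was lower.

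In the lactate and pyruvate branch, 3 of 5 genes rose, 1 fell and 1 did not pass the test in each genotype. Slc16a3, the lactate exporter MCT4 (chromosome 11, 120948480 to 120960868, plus strand), had 2.22 and 1.81 CPM in WT at day 0 and 226 and 310 CPM at day 3. In Susd2-/- libraries it had 1.30 and 1.67 CPM, then 276 and 214 CPM. The rise was 132-fold in WT (log2 7.05 ± 0.30, adjusted p = 6.11e-06) and 165-fold in Susd2-/- cells (7.37 ± 0.31). Slc16a1 (MCT1) started higher, at 56.4 and 60.6 CPM in WT, and rose 4.03-fold. Ldha, the dehydrogenase subunit that favours lactate, had 491 and 484 CPM in WT at day 0 and 4224 and 4665 CPM at day 3, a 9.11-fold rise (adjusted p = 3.55e-18). Ldhb, the subunit of heart-type dehydrogenase, had 9.34 and 11.3 CPM against 12.7 and 12.0 CPM, and its log2 fold change of 0.26 ± 0.16 did not pass the test (adjusted p = 0.131).

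Pdk1, the kinase that restrains entry of pyruvate into mitochondria, fell in both genotypes. Pdk1 is a known Hif1a target. The gene (chromosome 2, 71873224 to 71903858, plus strand) had 287 and 295 CPM in WT at day 0 and 100 and 134 CPM at day 3. Susd2-/- libraries had 219 and 220 CPM, then 116 and 122 CPM. No day 3 library reached a day 0 library. The log2 fold change was −1.32 ± 0.11 in WT (adjusted p = 4.58e-07) and −0.88 ± 0.11 in Susd2-/- cells (adjusted p = 1.42e-05).

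Hif1a and both hydroxylases rose in each genotype. Hif1a went from 89.7 CPM in both WT libraries at day 0 to 435 and 527 CPM at day 3 (5.36-fold), and from 86.4 and 97.8 CPM to 465 and 488 CPM in Susd2-/- libraries. The hydroxylase Egln3 rose by a log2 fold change of 3.55 ± 0.32 in WT, from 8.50 and 7.10 CPM to 67.3 and 116 CPM, and by 3.68 ± 0.34 in Susd2-/- cells. Egln1, the main oxygen sensor of the family, rose 2.09-fold in WT.

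Of the 6 other targets, 5 rose in each genotype. Vegfa, a growth factor for blood vessels (chromosome 17, 46016993 to 46032369, minus strand), had the largest rise of the 32 genes in WT. It had 0.156 and 0.239 CPM (5 and 7 counts) at day 0 and 27.6 and 40.8 CPM at day 3, a log2 fold change of 7.42 ± 0.29 (171-fold, adjusted p = 1.51e-13). In Susd2-/- cells it rose from 1.65 and 1.30 CPM to 32.6 and 29.5 CPM, a log2 fold change of 4.39 ± 0.21. P4ha2, a subunit of the collagen prolyl hydroxylase, rose by 3.95 ± 0.30 in WT, the mitophagy receptor Bnip3 by 3.30 ± 0.41 and Ankrd37 by 0.96 ± 0.26 on the log2 scale. Without WT day 3 library 2 the rise of Bnip3 was 2.68 and that of Egln3 3.13 on the log2 scale, and both passed the test, as did P4ha2. The WT call of Ankrd37 was lost without day 0 library 3 (adjusted p = 0.0549). Ndrg1, a stress-responsive gene, had 16.1 and 15.8 CPM in WT at day 0 and 14.4 and 30.2 CPM at day 3, so the days overlapped and the log2 difference of 0.48 ± 0.32 did not pass the test. It passed at 0.93 without WT day 3 library 1 and was −0.12, short of the test, without library 2. The kit preserved strand but the strand setting of the counting is not given in the sources used here. Exons of 12 of the 32 genes are overlapped by antisense genes, over 18 bases in Pfkm to 748 bases in Pfkp (Hif1a, Bnip3, Ankrd37 and Ndrg1 are among them), and their levels carry that uncertainty. Exons of Pkm, Pfkm and Hif1a are also overlapped by genes on the same strand, over 767, 341 and 148 bases, which no strand setting would resolve.

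Sister genes changed their proportions between the days. At day 0 the count of Hk1 exceeded that of Hk2 by log2 ratios of 6.18 and 5.06 in the WT libraries and 4.80 and 5.14 in the Susd2-/- libraries, and at day 3 the ratio was −0.57 and −0.31 in WT and −0.53 and −0.50 in Susd2-/- libraries. The mean log2 ratio of Slc2a3 to Slc2a1 went from 1.34 to −0.73 in WT and from 1.11 to −1.04 in Susd2-/- cells. That of Slc16a1 to Slc16a3 went from 4.87 to −0.17 in WT and from 5.37 to 0.00 in Susd2-/- cells. In every pair of sister genes compared, and not only in these 3, no day 3 library overlapped a day 0 library. With 75.2% of all genes changed between the days in WT, pairs of unrelated genes may separate the days too. Their share was not counted, so the separation is not particular to sister genes. The smallest shift was that of Pfkp to Pfkl, whose mean log2 ratio went from 1.46 to 0.83 in WT.

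**Figure D3:**
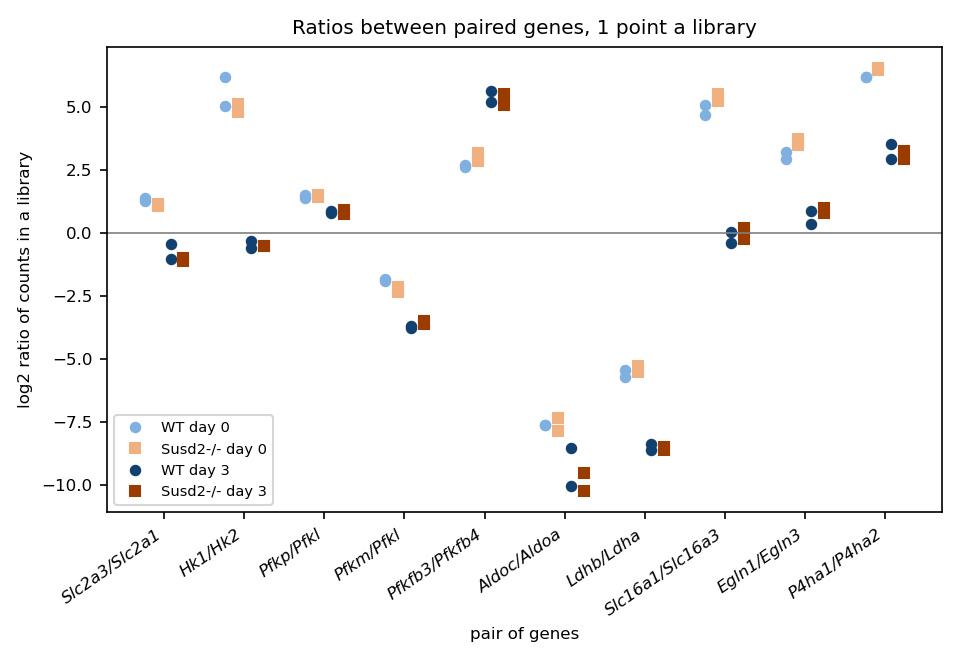
Log2 ratio of the counts of 2 related genes within a library (y axis) for 10 pairs (x axis), with 1 point a library, circles for WT, squares for Susd2-/- and darker color for day 3. Ratios fall from day 0 to day 3 in every pair except Pfkfb3/Pfkfb4, which rises.

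Per kilobase of merged GENCODE exons, Ldha had the highest level of the 32 genes in each group, at 147 ± 1.43 CPM per kb in WT at day 0 and 1343 ± 94.2 CPM per kb at day 3 (SD, n = 2). Pgk1 moved from the fourth place at day 0 to the second at day 3 in WT, at 923 ± 67.2 CPM per kb, and Pkm went from the second to the third place, at 836 ± 59.3 CPM per kb, with library values that overlapped those of Pgk1. At the low end at day 3 were Pfkfb4 (0.370 ± 0.0729 in WT), Aldoc (1.05 ± 0.800) and P4ha2 (1.46 ± 0.481 CPM per kb). Per kilobase, Hk2 exceeded Hk1 at day 3 in WT (66.7 ± 0.629 against 34.6 ± 4.21 CPM per kb), whereas at day 0 Hk1 was higher (18.9 ± 0.303 against 0.589 ± 0.300). The merged exons, 8532 bases in Hk1 and 5969 in Hk2, join all annotated transcripts and may exceed the length of those expressed. Places and comparisons per kilobase, the day 3 order of Hk2 and Hk1 included, depend on these lengths. Egln1 and Egln3 did not differ beyond their spread at day 3 in WT (37.8 ± 4.48 against 34.5 ± 13.0 CPM per kb), nor did Slc16a1 and Slc16a3 (53.3 ± 0.107 against 50.3 ± 11.2).

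Genes around these pathways were taken from lists set by function. Between 73.1% and 94.1% of the tested genes of each list changed between days in WT, beside 75.2% of all genes (36.2% upward and 39% downward), so the counts that follow lie close to or somewhat above that share. In the pentose phosphate pathway, which branches off before glycolysis to make NADPH and ribose, 7 of 10 genes rose and 1 fell in WT, among them the transketolase Tkt (log2 2.23 ± 0.06) and Pgd (1.84 ± 0.07). Of 13 genes of pyruvate entry into mitochondria, 9 rose and 3 fell in WT. Dlat, a subunit of pyruvate dehydrogenase, rose by 1.80 ± 0.07, and the kinase Pdk3 by 1.87 ± 0.09 on the log2 scale. Its sister kinase Pdk2 fell, like Pdk1, from 7.56 and 9.60 CPM to 0.0646 and 0.0708 CPM in WT. Of 26 other glycolytic isozymes and side steps tested, 12 rose and 7 fell, with rises of Gpd2, Eno3 and Bsg, the chaperone of the lactate carriers. Of 37 other hypoxia response genes, 21 rose and 12 fell, led by the repressor Bhlhe40 (log2 4.75 ± 0.09) and the transferrin receptor Tfrc (3.47 ± 0.08), and Zfp292 fell. Of 13 HIF subunits and oxygen-sensing genes, 5 rose and 6 fell, and of 17 glucose sensing and upstream regulators, 10 rose and 6 fell. Irf4 rose by 5.41 ± 0.09, and Txnip, an inhibitor of glucose uptake, fell by 3.79 on the log2 scale in WT. The median log2 fold changes of these 6 lists lay between −0.23 and 0.75 in WT, below the 2.51 of the 32 genes.

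Between the genotypes, 6 of the 32 genes differed at day 0, 3 upward and 3 downward in Susd2-/- cells (18.8%). Over all genes tested 23.6% changed at day 0, 11.5% upward and 12.1% downward, so the share of the 32 was no higher than the background. The median log2 difference over the 32 was 0.00. In edgeR 9 of the 32 had an unadjusted p below 0.05, beside 5539 of the 16057 genes tested. The upward changes were Vegfa, P4ha1 and Gapdh, and the downward ones Tpi1, Ldha and Pdk1. Vegfa was the only gene of the 32 to differ by at least 2-fold, beside 544 of the 16057 genes tested. Only 3 of the 32 passed the test when WT library 3, Susd2-/- library 3 or Susd2-/- library 4 was left out.

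The Vegfa count was 5 and 7 in WT and 52 and 38 in Susd2-/- libraries of day 0. In CPM these were 0.156 and 0.239 against 1.65 and 1.30. The log2 difference, Susd2-/- over WT, was 2.89 ± 0.43 (7.41-fold, adjusted p = 0.000127). These day 0 levels stood far below the 27.6 CPM of the lowest day 3 library.

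P4ha1, a catalytic subunit of collagen prolyl hydroxylase (chromosome 10, 59323296 to 59373304, plus strand), had 40.9 and 45.1 CPM in WT and 62.6 and 63.9 CPM in Susd2-/- libraries at day 0. The log2 difference was 0.56 ± 0.08 (1.47-fold, adjusted p = 5.89e-05). Gapdh had 40.2 and 45.2 CPM in WT and 52.2 and 47.6 CPM in Susd2-/- libraries, with a log2 difference of 0.23 ± 0.07 (adjusted p = 0.0341). This call was lost in 7 of 20 alternative fits, among them those without WT library 3 and without Susd2-/- library 3. Its near-identical copies, described above, touch this value as well.

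Pdk1 was lower in Susd2-/- cells at day 0, at 219 and 220 CPM against 287 and 295 CPM in WT (log2 −0.41 ± 0.10, adjusted p = 0.0163). Tpi1 had 43.6 and 40.6 CPM against 52.7 and 50.3 CPM (log2 −0.29 ± 0.07, adjusted p = 0.00508). Ldha (chromosome 7, 46841475 to 46855627, plus strand) had 442 and 408 CPM against 491 and 484 CPM (log2 −0.20 ± 0.06, adjusted p = 0.0314). The 3 genes did not overlap between genotypes, but uncalled genes such as Pkm (adjusted p = 0.866) and Slc2a3 (adjusted p = 0.854) did not overlap either. The calls of Ldha, Pdk1 and Tpi1 were lost in 8, 4 and 3 of 20 alternative fits, all 3 of them when the day 0 libraries of a group were counted as 1 and when Susd2-/- library 4 was left out. Ldha was also lost without each other day 0 library, Pdk1 without WT library 4 or Susd2-/- library 3, and Tpi1 without WT library 3. Vegfa and P4ha1 passed the test in all 20 at day 0.

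Some markers of other cells differed between genotypes at day 0, where 23.6% of all genes did. Of 16 macrophage and monocyte markers 9 were higher and 1 lower in Susd2-/- libraries, with Csf1r at 9.66 CPM in WT and 23.0 CPM in Susd2-/- cells, while their summed level ran from 374 to 391 CPM in WT and from 384 to 412 CPM in Susd2-/- libraries and none was at 0. Natural killer cell markers were lower in Susd2-/- libraries for 3 of 6 genes (summed 86.7 to 87.4 CPM in WT against 46.0 to 48.4 CPM). Of 8 B cell markers 2 were higher, a share of 25% that lies near that of all genes (summed 530 to 540 against 605 to 669 CPM), of 4 tested plasma cell markers 2 were higher and 2 lower, and of 10 CD8 T cell identity genes 5 were lower (summed 6668 to 6767 against 5797 to 6199 CPM). The part of these cells in the day 0 differences of Vegfa and the other genes was not tested.

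Among related genes at day 0, regulators of glucose use moved mainly upward. Of 17 glucose sensing and upstream regulators 8 were higher and 2 lower in Susd2-/- cells (58.8%, beside the 23.6% of all genes). Irf4 had 13.6 and 12.5 CPM in WT and 39.3 and 34.1 CPM in Susd2-/- libraries (log2 1.49 ± 0.08, adjusted p = 3.9e-10). Mlxip, a glucose-responsive transcription factor, was higher by 0.75 ± 0.07, Myc by 0.45 ± 0.08 and Txnip by 0.36 ± 0.07 on the log2 scale. Of 37 other hypoxia response genes 8 were higher and 1 lower, a share of 24.3%, led by Nfil3 (1.48 ± 0.14) and Cited2 (0.89 ± 0.09), a competitor of HIF factors for their coactivators. In the remaining lists, Siah2, a ubiquitin ligase for the Egln enzymes, was higher by 0.89 ± 0.10, Gpd2 was higher by 0.52 ± 0.08, and Slc2a9, Mpc1 (a subunit of the mitochondrial pyruvate carrier), Rpe and Pgls were lower.

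**Figure D4:**
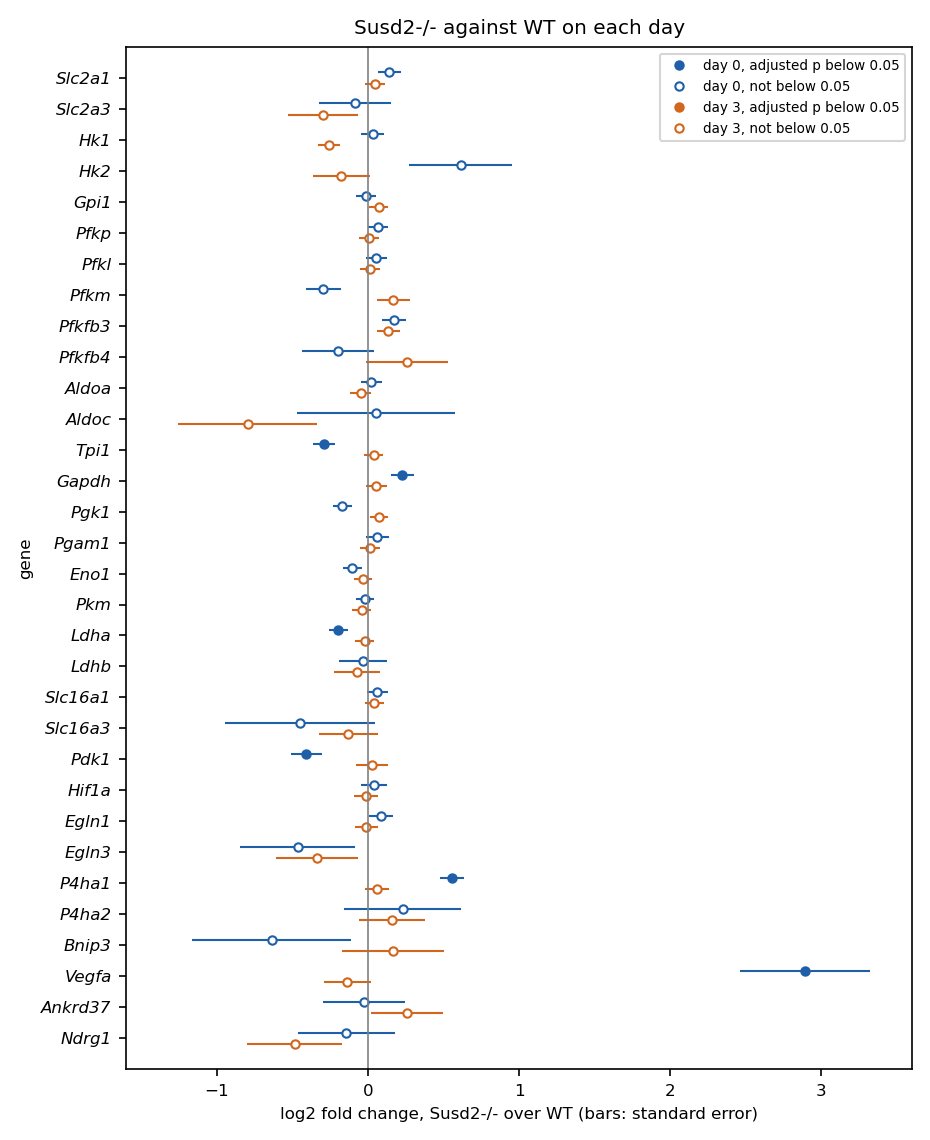
Log2 fold change of Susd2-/- over WT (x axis) for each of the 32 genes (y axis), day 0 in blue and day 3 in orange, with bars for the standard error and filled points for an adjusted p below 0.05. At day 0, 6 points are filled and Vegfa lies alone at 2.89; at day 3 no point is filled.

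At day 3 none of the 32 genes passed the test between genotypes in edgeR, DESeq2 or limma voom, and 1 gene, Hk1, had an unadjusted p below 0.05 in edgeR. Over all genes tested 0.137% changed (0.0498% upward and 0.0872% downward), and 1267 of 16057 had an unadjusted p below 0.05 in edgeR. The median log2 difference over the 32 was 0.01. For 22 of the 32 genes the 95% interval of the log2 difference lay within 0.5 of 0 in both directions. That of Ldha ran from −0.15 to 0.11, that of Pkm from −0.17 to 0.09 and that of Slc2a1 from −0.09 to 0.18. The intervals reached past 0.5 in at least 1 direction for Slc2a3, Hk2, Pfkfb4, Aldoc, Slc16a3, Egln3, P4ha2, Bnip3, Ankrd37 and Ndrg1. Differences of that size remain possible for these genes. All these intervals rest on a spread estimated over the 4 groups together. Libraries varied more at day 3 (10.1%) than at day 0 (5.38%), so the day 3 intervals may be too narrow. No gene of the 6 related lists passed the test at day 3.

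The genotype difference itself changed between days for 3 of the 32 genes (9.38%), beside 13.5% of all genes tested (6.6% upward and 6.88% downward). The interaction is the day 3 minus day 0 change of Susd2-/- cells less that of WT cells. It was −3.03 ± 0.46 for Vegfa (adjusted p = 0.000393), −0.50 ± 0.11 for P4ha1 (adjusted p = 0.0061) and 0.33 ± 0.09 for Tpi1 (adjusted p = 0.0271) on the log2 scale. At day 3 the genotypes overlapped for all 3: Vegfa had 27.6 and 40.8 CPM in WT and 32.6 and 29.5 CPM in Susd2-/- libraries, P4ha1 81.0 and 87.6 against 83.0 and 92.6 CPM, and Tpi1 1443 and 1608 against 1559 and 1570 CPM. In limma voom the interactions of Vegfa and Tpi1 missed the test (adjusted p = 0.0514 and 0.0509). In edgeR those of P4ha1 and Tpi1 missed it with the day 0 libraries of a group counted as 1 (adjusted p = 0.12 and 0.252). That of P4ha1 also missed it without WT day 0 library 3 (adjusted p = 0.117), and that of Tpi1 without either WT day 0 library, Susd2-/- day 0 library 4 or Susd2-/- day 3 library 2. The median interaction over the 32 was −0.04 without WT day 3 library 1 and 0.16 without WT day 3 library 2, beside 0.06 over all genes in each fit. For Pdk1 the difference between days did not pass the test (0.43 ± 0.15, adjusted p = 0.0833).

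The WT libraries at day 3 differed from each other in some hypoxia genes. Library 2 was at least 1.5-fold above library 1 for 6 of the 32 genes (Slc2a3, Aldoc, Egln3, P4ha2, Bnip3 and Ndrg1) and at least 1.5-fold below it for 0. Over all genes with counts in both, 10.1% were that much higher and 8.2% lower. Bnip3 had 15.1 CPM in library 1 and 32.3 CPM in library 2, and Ndrg1 14.4 and 30.2 CPM, whereas the Susd2-/- libraries held 26.1 and 26.9 CPM of Bnip3 and 15.6 and 16.1 CPM of Ndrg1. Between the Susd2-/- libraries at day 3, Aldoc was the only gene of the 32 past 1.5-fold. WT library 2 was the highest of the 4 day 3 libraries for 18 of the 32 genes (56.2%) and for 23 of 37 other hypoxia response genes (62.2%), beside 30.2% of all genes tested. Among 13 HIF subunits and oxygen-sensing genes it was the highest for 1 (7.69%), and Susd2-/- library 2 was the highest for 8 (61.5%, beside 26.3% of all genes tested).

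**Figure D5:**
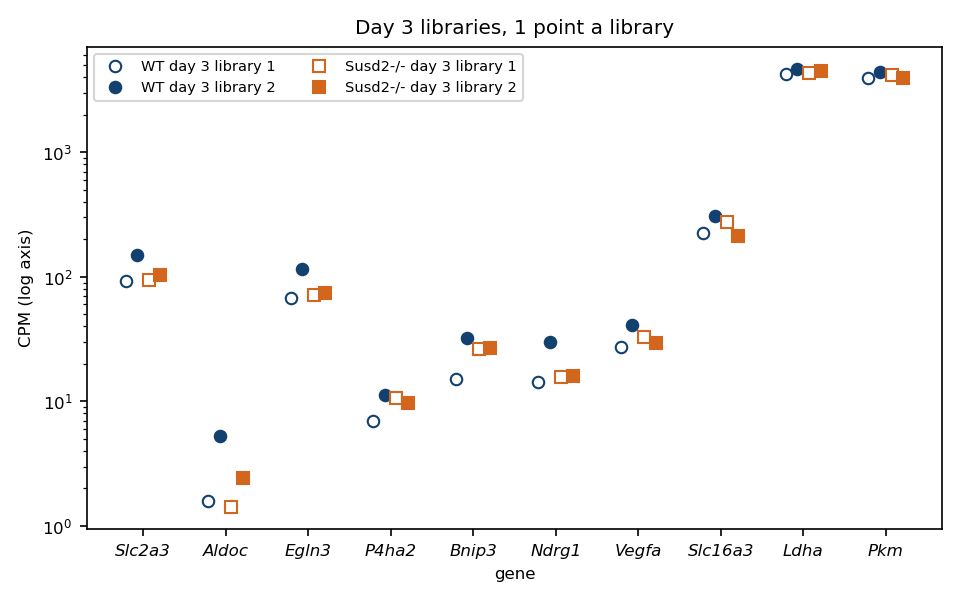
Level in CPM (y axis, log scale) of 10 genes (x axis) in the 4 day 3 libraries, with 1 point a library, circles for WT, squares for Susd2-/- and filled points for library 2. WT library 2 stands above the other 3 libraries for the 6 genes at the left, while Ldha and Pkm lie close together in all 4.

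The comparison of genotypes at day 3 turned on these libraries. Without WT library 1, 5 genes were lower in Susd2-/- cells: Slc2a3 (log2 −0.56, adjusted p = 1.89e-05), Egln3 (−0.64), Ndrg1 (−0.88), Aldoc (−1.37) and Hk1 (−0.33). Without WT library 2, Bnip3 alone was higher (log2 0.84, adjusted p = 0.0114), and Slc2a3, Egln3, Ndrg1 and Aldoc had log2 differences of 0.12, 0.13, 0.17 and 0.34 that did not pass the test. In each of these fits WT day 3 is a lone library, assumed to vary like the other groups.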

How the data were processed

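Gene expression was measured by RNA-seq in 8 libraries, given as 15 lane columns that were summed by library. The authors deposited raw counts per gene symbol, without normalization, per the file header. Tools named in the submitters' processing notes were HISAT2 2.1.0, fastp 0.23.2, Subread 2.0.1 and SAMtools 1.10, with GRCm38. For annotation release, strand setting and multiply aligned reads, the entry is "not given in the sources used here". Totals of 26829807 to 53846911 counts per library set the precision, and filterByExpr kept 16057 of 27019 genes, with at least 99.9% of the counts. One edgeR 4.0.16 model (R 4.3.3, TMM, robust quasi-likelihood F test) covered all groups, and gave Susd2-/- over WT at each day, day 3 over day 0 in each genotype, and the interaction. Adjusted p-values are Benjamini-Hochberg values over the genes tested, and a standard error is the fold change over the square root of F. The procedure was tested on simulated counts. Alternatives, 20 for each comparison (19 for the interaction), used DESeq2 1.42.0, limma 3.58.1, other scalings and filters, and fewer or merged libraries. The 32 genes, the related lists and the markers were chosen with earlier results of these data known. Full values are given for genes changed between genotypes or in the interaction, the 4 largest rises and falls in WT and both genes of each isozyme pair, and up to 4 genes of smallest adjusted p are named from each related list. Lengths, overlaps and near-identical copies are from GENCODE M21.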

Additional observations from a re-analysis of the deposited data

Results flagged for a closer look

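For 3 genes the difference between the genotypes changed between the days by the interaction test. The interaction was −3.03 for Vegfa, whose Susd2-/- over WT difference was 2.89 ± 0.43 at day 0 and −0.14 ± 0.16 at day 3 on the log2 scale. It was −0.50 for P4ha1, with differences of 0.56 ± 0.08 and 0.06 ± 0.08, and 0.33 for Tpi1, with differences of −0.29 ± 0.07 and 0.04 ± 0.06. Under total-count scaling, the size factors of DESeq2 and upper-quartile scaling all 3 kept their direction and passed the test. The call was lost for Vegfa in limma voom (adjusted p = 0.0514), for P4ha1 with the day 0 libraries counted as 1 and without WT day 0 library 3, and for Tpi1 in 6 of 19 alternatives.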

How the results depend on the processing

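The counts of the 32 genes changed between days moved little: over 20 alternatives they ran from 28 to 31 in WT (30 as reported) and from 28 to 30 in Susd2-/- cells (28 as reported). No call reversed, but at day 3 the uncalled genotype differences of Slc2a3, Egln3, Ndrg1 and Aldoc, negative as reported, turned positive without WT day 3 library 2. Other uncalled differences also changed sign in some fits. At day 0 the genotype count was 10 with only the 2 day 0 groups in the fit and 3 with the day 0 libraries of a group counted as 1, against 6 as reported, and it ran from 3 to 9 when each library was left out in turn. At day 3 it was 0 in each alternative except without WT day 3 library 1 (5) and without WT day 3 library 2 (1), a range of 0 to 5 when each library was left out. The interaction count was 8 without the filter on low counts and 5 in DESeq2, against 3 as reported, and ran from 2 to 7 when each library was left out. The causes of these shifts were not tested. Same-numbered libraries of the 2 genotypes had deviations from the group means that correlated at 0.00859 (day 0) and −0.0104 (day 3) over genes. With 2 libraries in each group, these values cannot show whether same-numbered libraries were prepared together. With the library number as a replicate block the counts were 6, 0, 30, 29 and 4 in the order genotype at day 0, genotype at day 3, days in WT, days in Susd2-/- cells and interaction. Over all alternatives and comparisons, a call of one of the 32 genes was lost 46 times, gained 56 times and unchanged 3066 times. Over all genes tested, 3792 differed between genotypes at day 0, against 725 with the day 0 libraries counted as 1 and 2044 to 4410 when each library was left out. At day 3, 22 differed, against 138 without the filter, 66 in DESeq2, 13 without robust estimation, 3 with only the day 3 groups, 1 with the day 0 libraries counted as 1 and 6 to 392 when each library was left out (309 without WT day 3 library 1, 392 without Susd2-/- day 3 library 1). The interaction changed 2164 genes, against 364 with the day 0 libraries counted as 1 and 1176 to 2498 when each library was left out. Scaling by total counts moved the WT median of all genes from −0.14 to −0.32, upper-quartile scaling to −0.33, and under either 27 of the 32 genes rose in WT, Slc2a3 being lost. With 2 libraries in each group, depth limits the low genes most: Vegfa rests on 5 and 7 counts in WT at day 0.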
